A study of Sus scrofa with 16 samples.

Results

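Adrenomedullin and a set of genes of the blood vessel lining were followed in the subcutaneous adipose tissue of growing pigs. The set holds 8 genes: ADM, SOX18, ENG, PECAM1, VWF, CDH5, KDR and TEK. A gene was taken by every probe that carried its name in the scanner files and was not a control, if the scanner software called it well above background on at least 8 of 16 arrays. In this way 7 of the 8 genes were found among 3171 named genes measured, by 13 of 32097 kept probes: 4 for PECAM1, 3 for TEK, 2 for CDH5 and 1 each for ADM, SOX18, ENG and VWF. All 13 were well above background on all 16 arrays, so none entered through 1 group only. No probe carried the name KDR. A probe that the files describe as the kinase insert domain receptor, which is the full name of KDR, lies outside the rule and is given apart. The set was chosen on these same arrays with line differences already known, so each gene's difference between the lines, over all arrays or within replicates, is given as a description without a p-value, and nothing is read from the counts of such differences.

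The tissue came from 8 pigs of the low-RFI line (RFIneg) and 8 pigs of the high-RFI line (RFIpl), all at 20 kg body weight and all fed ad libitum. Residual feed intake (RFI) is the feed an animal eats beyond what its growth and maintenance predict. RNA of each pig was read on 1 single-colour array, with replicates numbered 1 to 8 in each line. The labels do not say what the numbers mark, nor whether pigs of a line share a litter, so the tests measure the spread between these pigs. Replicates 5 to 8 and 1 to 4 were also looked at apart. Between 68.7% and 80.3% of spots were well above background, and arrays correlated with each other at 0.944 to 0.989. Each of the 4 slides held 4 arrays, 2 of each line. Earlier results of these data had shown 4 arrays with muscle, epithelial or interferon genes far above the others (low-RFI replicate 8 and high-RFI replicates 2, 5 and 6), and results are also given without them.

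Endothelial cells line all vessels and make up part of the non-fat cells of adipose tissue. PECAM1 (CD31) and CDH5 (VE-cadherin) hold them to each other at their junctions, VWF is the clotting glycoprotein they store and release, and SOX18 is a transcription factor of developing vessels. ENG (endoglin) is a coreceptor for ligands of the TGF-beta family, KDR is the main receptor for VEGF, and TEK (TIE2) is the receptor for the angiopoietins. ADM encodes a secreted peptide that widens vessels, is induced by low oxygen in many cell types, and acts through the receptor CALCRL together with RAMP2 or RAMP3. The question asked of these arrays was whether ADM follows the endothelial genes from pig to pig, and how each gene stands in the lines.

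The level of a gene is what a 60-base probe on the array collects, and these probes differ widely in composition. The 4 below carry the levels of SOX18, VWF and 2 of the 4 PECAM1 probes. They are shown because this contrast is why the level of 1 gene is not set against that of another here. CpG pairs are in capitals, and each probe is given 5′ to 3′ as in the scanner files.
SOX18: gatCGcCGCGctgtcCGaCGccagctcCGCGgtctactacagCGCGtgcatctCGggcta
VWF: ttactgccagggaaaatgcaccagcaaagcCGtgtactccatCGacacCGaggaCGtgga
PECAM1 probe 3: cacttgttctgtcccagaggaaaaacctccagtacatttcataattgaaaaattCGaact
PECAM1 probe 4: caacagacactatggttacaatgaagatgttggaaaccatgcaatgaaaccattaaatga
The SOX18 probe is 68.3% G and C with 10 CpG pairs, and the VWF probe 55% with 4. The PECAM1 probes have 36.7% and 35.0%, with 1 and 0 CpG pairs. The files name no genome build for the probes, so no position is given.

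All values are log2 of the processed signal minus the 75th percentile of the array, so 0 is that percentile and 1 unit is a doubling. A gene is given by its probe with the highest mean signal, and differences run low-RFI minus high-RFI with the standard error (SE) of the limma fit.

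ADM was higher in low-RFI fat. Its level in low-RFI pigs was 2.91, 2.68, 3.20 and 2.86 in replicates 5 to 8 and 3.38, 2.61, 2.54 and 2.64 in replicates 1 to 4. In high-RFI pigs it was 2.73, 1.74, 2.53 and 2.46 in replicates 5 to 8 and 2.40, 2.45, 2.06 and 1.89 in replicates 1 to 4. All 8 low-RFI pigs lay above the high-RFI mean, 7 of 8 high-RFI pigs lay below the lowest low-RFI pig, and the lines overlapped through high-RFI replicate 5 alone. The means were 2.85 ± 0.30 in low-RFI and 2.28 ± 0.35 in high-RFI pigs (SD, n = 8 each), a difference of 0.57 (SE 0.16), or 1.49-fold. The difference was 0.55 (SE 0.22) within replicates 5 to 8 and 0.59 (SE 0.22) within replicates 1 to 4, and it was 0.84, 0.56, 0.41 and 0.49 within slides 1 to 4. Without the 4 arrays that stand apart it was 0.59. In these whole-tissue samples, more cells of a kind and more RNA per cell cannot be told apart.

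**Figure D1:**
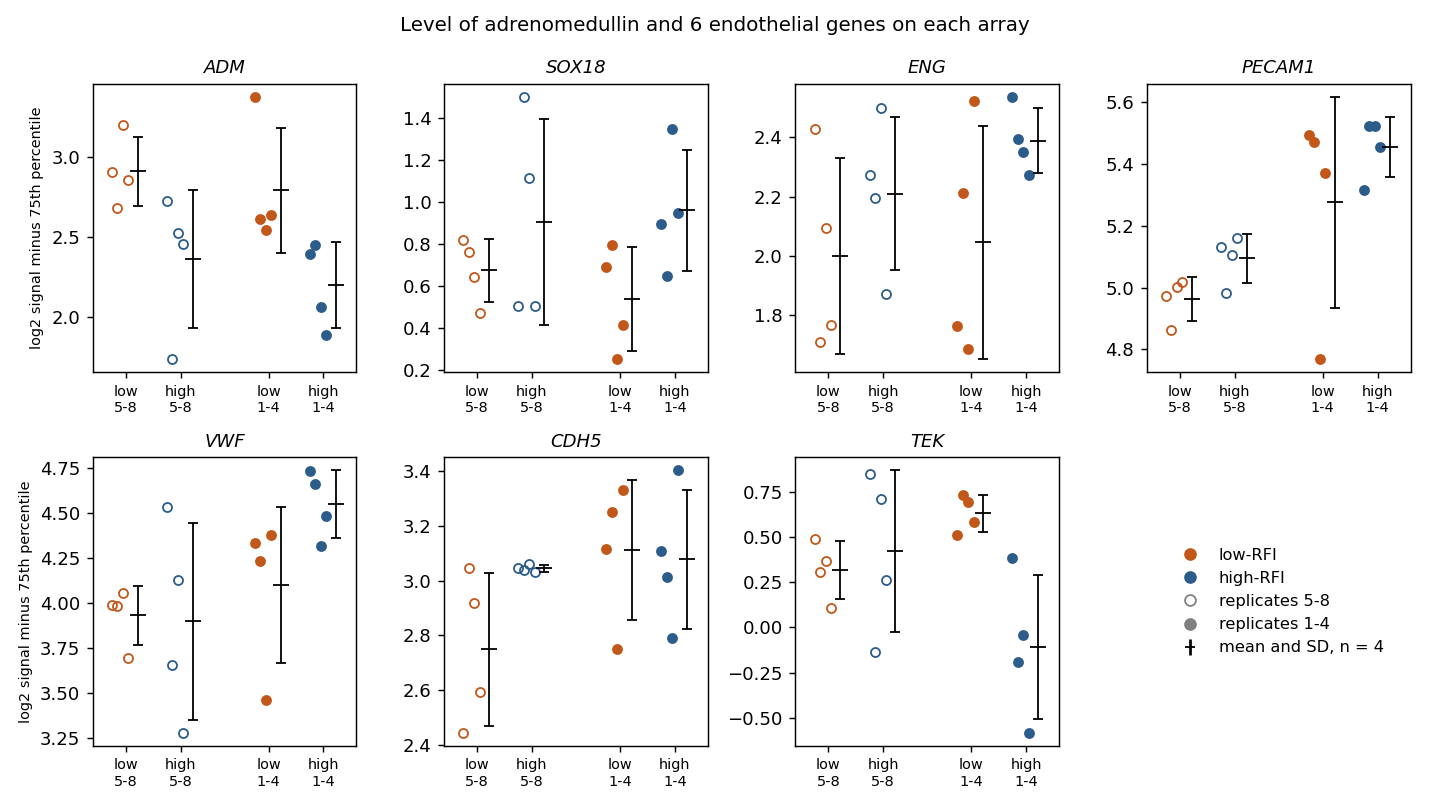
Level of 7 genes on each array, as log2 signal minus the 75th percentile of the array, with open circles for replicates 5 to 8 and filled circles for replicates 1 to 4, low-RFI left of high-RFI in each pair, and the mean and SD of each 4 arrays beside them. ADM is higher in low-RFI in both pairs, the lines lie apart for TEK in replicates 1 to 4, and PECAM1 is lower in replicates 5 to 8 apart from low-RFI replicate 3.

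SOX18 and ENG lay the other way, lower in low-RFI fat at 0.80 and 0.83 of the high-RFI signal. SOX18 ranged over 0.25, 0.67 and 0.82 (lowest, median, highest) in low-RFI pigs, against 0.50, 0.92 and 1.5 in high-RFI pigs. All 8 low-RFI pigs lay below the high-RFI mean, but the lines overlapped. The difference was -0.33 (SE 0.15), with -0.23 (SE 0.24) within replicates 5 to 8 and -0.42 (SE 0.19) within replicates 1 to 4. Within slide 2 it was 0.18, against -0.48, -0.52 and -0.48 within slides 1, 3 and 4. ENG had 1.69, 1.93 and 2.52 in low-RFI pigs, against 1.87, 2.31 and 2.54 in high-RFI pigs. Of the low-RFI pigs 6 lay below the high-RFI mean and 2 above it. The difference was -0.28 (SE 0.14), with -0.21 (SE 0.20) within replicates 5 to 8 and -0.34 (SE 0.20) within replicates 1 to 4.

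The junction genes and VWF overlapped widely between the lines. PECAM1 had 4.77, 5.01 and 5.49 in low-RFI pigs, against 4.98, 5.24 and 5.52 in high-RFI pigs, which is -0.15 (SE 0.13) between the means. CDH5 had 2.44, 2.98 and 3.33 in low-RFI pigs, against 2.79, 3.04 and 3.40 in high-RFI pigs, which is -0.13 (SE 0.13). For both genes 5 of 8 low-RFI pigs lay below the high-RFI mean. VWF had 3.46, 4.02 and 4.38 in low-RFI pigs, against 3.28, 4.40 and 4.74 in high-RFI pigs, which is -0.21 (SE 0.20). VWF differed by 0.03 (SE 0.26) within replicates 5 to 8 and by -0.45 (SE 0.22) within replicates 1 to 4. High-RFI pigs of replicates 5 to 8 had nearly equal CDH5 levels, 3.03 to 3.06, against 2.44 to 3.05 in low-RFI pigs of the same numbers. The CDH5 means there were 2.75 in low-RFI and 3.04 in high-RFI pigs, against 3.11 and 3.08 in replicates 1 to 4. The PECAM1 means were 4.96 and 5.09 in replicates 5 to 8 and 5.28 and 5.45 in replicates 1 to 4. CDH5 probe 2 did not overlap between the lines in replicates 5 to 8.

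TEK, the angiopoietin receptor, separated the lines in replicates 1 to 4 and not in replicates 5 to 8. In replicates 5 to 8 it was 0.49, 0.31, 0.37 and 0.11 in low-RFI pigs, against 0.85, -0.14, 0.71 and 0.26 in high-RFI pigs. In replicates 1 to 4 it was 0.51, 0.74, 0.69 and 0.58 in low-RFI pigs, against 0.39, -0.19, -0.04 and -0.58 in high-RFI pigs. The lines overlapped fully in replicates 5 to 8, with a difference of -0.10 (SE 0.22), and not at all in replicates 1 to 4, with a difference of 0.74 (SE 0.20). The 2 other TEK probes gave -0.21 and -0.18 in replicates 5 to 8, against 0.73 and 0.65 in replicates 1 to 4. The line difference in replicates 5 to 8 minus that in replicates 1 to 4 was -0.84 for the brightest TEK probe and -0.94 and -0.84 for the other 2. In the limma fit of this quantity 0 of the 13 probes were called, with 0% of all probes called, and 3 of 13 had an unadjusted p under 0.05, beside 6.81% of all probes. Probes of the same gene repeat each other, so nothing is read from this count.

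Markers of lymphatic vessels and part of the macrophage markers differed between the lines in the same directions as TEK, as did most of the ligand list given below. Their part in the TEK values was not tested. All 3 lymphatic genes measured were lower in low-RFI pigs in replicates 5 to 8 and higher in replicates 1 to 4. LYVE1, the hyaluronan receptor of lymphatic vessels, differed by -0.32 (SE 0.48) in replicates 5 to 8 and by 1.24 (SE 0.20) in replicates 1 to 4. CCL21, a lymphatic chemokine, differed by -0.38 (SE 0.50) in replicates 5 to 8 and by 1.19 (SE 0.43) in replicates 1 to 4. Of the 5 macrophage genes measured, all 5 were lower in low-RFI pigs in replicates 5 to 8. In replicates 1 to 4, 3 were higher and 2 lower, and the 2 genes shown were picked from those that were higher. CD163, a scavenger receptor, differed by -0.85 (SE 0.48) in replicates 5 to 8 and by 1.01 (SE 0.40) in replicates 1 to 4, and the complement gene C1QA by -1.10 (SE 0.53) in replicates 5 to 8 and by 0.73 (SE 0.24) in replicates 1 to 4. None of these 8 genes passed in either limma fit (0 genes), with 0 lymphatic and 1 macrophage gene at an unadjusted p under 0.05 in replicates 5 to 8 and 2 of each list in replicates 1 to 4. Of the 11 measured genes of the ligand list, 9 were lower in low-RFI pigs in replicates 5 to 8 (median -0.28) and 2 higher. In replicates 1 to 4, 9 were higher (median 0.18) and 2 lower, and 0 passed in either fit. The adipocyte list turned the other way, with 10 of 12 higher in replicates 5 to 8 and 11 lower in replicates 1 to 4.

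Over all 16 arrays, 0 of the 13 probes differed between the lines at an adjusted p under 0.05 in limma, with 0% of all probes called. At an unadjusted p under 0.05 there were 2 of 13, and 3.68% of all probes. The members were chosen with line differences known, and probes of the same gene repeat each other. Nothing is therefore read from the counts in this paragraph. Within replicates 5 to 8 the counts were again 0 of 13, beside 0% of all probes, with 3 of 13 at an unadjusted p under 0.05 beside 5.48%. Within replicates 1 to 4 they were 0 of 13, beside 0.0156% of all probes, with 4 of 13 at an unadjusted p under 0.05 beside 5.63%. The lines did not overlap for 0 of the 13 probes over 16 arrays, beside 0.00947% of all probes. In replicates 5 to 8 they did not overlap for 2 probes, PECAM1 probe 2 and CDH5 probe 2, both lower in low-RFI pigs, beside 2.87% of all probes. In replicates 1 to 4 they did not overlap for 3, ADM and TEK probes 1 and 2, all higher in low-RFI pigs, beside 3.59%.

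**Figure D2:**
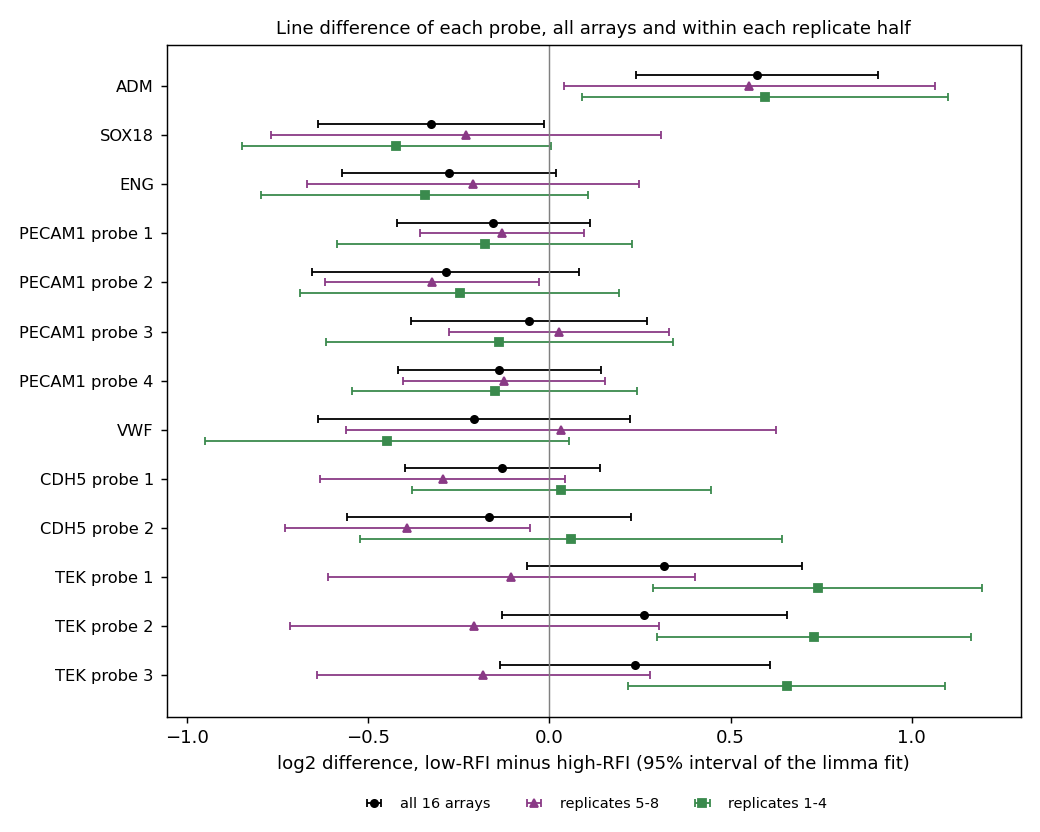
Difference between the lines for each of 13 probes, low-RFI minus high-RFI in log2 units, with the 95% interval of the limma fit, for all 16 arrays (black circles), replicates 5 to 8 (purple triangles) and replicates 1 to 4 (green squares). ADM lies right of 0 in all 3 fits, and the 3 TEK probes lie right of 0 in replicates 1 to 4 and left of 0 in replicates 5 to 8.

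PECAM1 was lower in replicates 5 to 8 than in replicates 1 to 4 of both lines. In replicates 5 to 8 its level was 4.97, 4.86, 5.0 and 5.02 in low-RFI and 5.13, 4.98, 5.11 and 5.16 in high-RFI pigs. In replicates 1 to 4 it was 5.49, 5.47, 4.77 and 5.37 in low-RFI and 5.32, 5.52, 5.52 and 5.45 in high-RFI pigs. Apart from low-RFI replicate 3, which was the lowest of all 16 arrays, every array of replicates 1 to 4 lay above every array of replicates 5 to 8. Its difference was -0.34 (SE 0.10), which did not pass (limma adjusted p = 0.0543). Of the 13 probes 1 passed, PECAM1 probe 2, with 2.13 ± 0.23 in replicates 5 to 8 and 2.67 ± 0.29 in replicates 1 to 4 (SD, n = 8 each), a difference of -0.54 (limma adjusted p = 0.0192). In this comparison 5.18% of all probes were called, so 1 of 13 is near the background. At an unadjusted p under 0.05 there were 6 of 13, beside 23.5% of all probes. PECAM1 probes 3 and 4 differed by -0.39 and -0.36 (limma adjusted p = 0.0747 and 0.0502).

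The number of probes that passed moved with low-RFI replicate 3 and with the processing. Under normexp background correction 0 of 13 passed, beside 16 of 32097 probes in all. With a filter on all 16 arrays 3 of 13 did, beside 1817 of 28001 probes in all. Without low-RFI replicate 3 6 of the 13 passed, all lower in replicates 5 to 8: the 4 PECAM1 probes, VWF at -0.53 (limma adjusted p = 0.0355) and CDH5 probe 2 at -0.50 (limma adjusted p = 0.0343). The count over all probes also moved, to 4790 of 32097 against 1662 with that array. Since 4 of these 6 probes are of PECAM1 and repeat each other, nothing is read from this count. With all 16 arrays VWF differed by -0.41 (limma adjusted p = 0.186) and CDH5 by -0.20 (limma adjusted p = 0.336). ADM, TEK and SOX18 differed by 0.14, 0.11 and 0.04 (limma adjusted p = 0.625, 0.763 and 0.901). The labels do not say what replicate numbers 5 to 8 share, so the source of this difference was not tested.

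Probes of the same gene moved together over the 16 arrays. The 3 TEK probes correlated at 0.93 to 0.98, the 2 CDH5 probes at 0.96, and the 4 PECAM1 probes at 0.76 to 0.89. With the mean of each line and replicate set taken off they were 0.89 to 0.96 for TEK, 0.95 for CDH5 and 0.58 to 0.78 for PECAM1. Probes described in the files as SOX-18 and von Willebrand factor, which carry neither gene's name, followed SOX18 at 0.78 and VWF at 0.82. The points share their arrays, so these are descriptions of the probes.

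**Figure D3:**
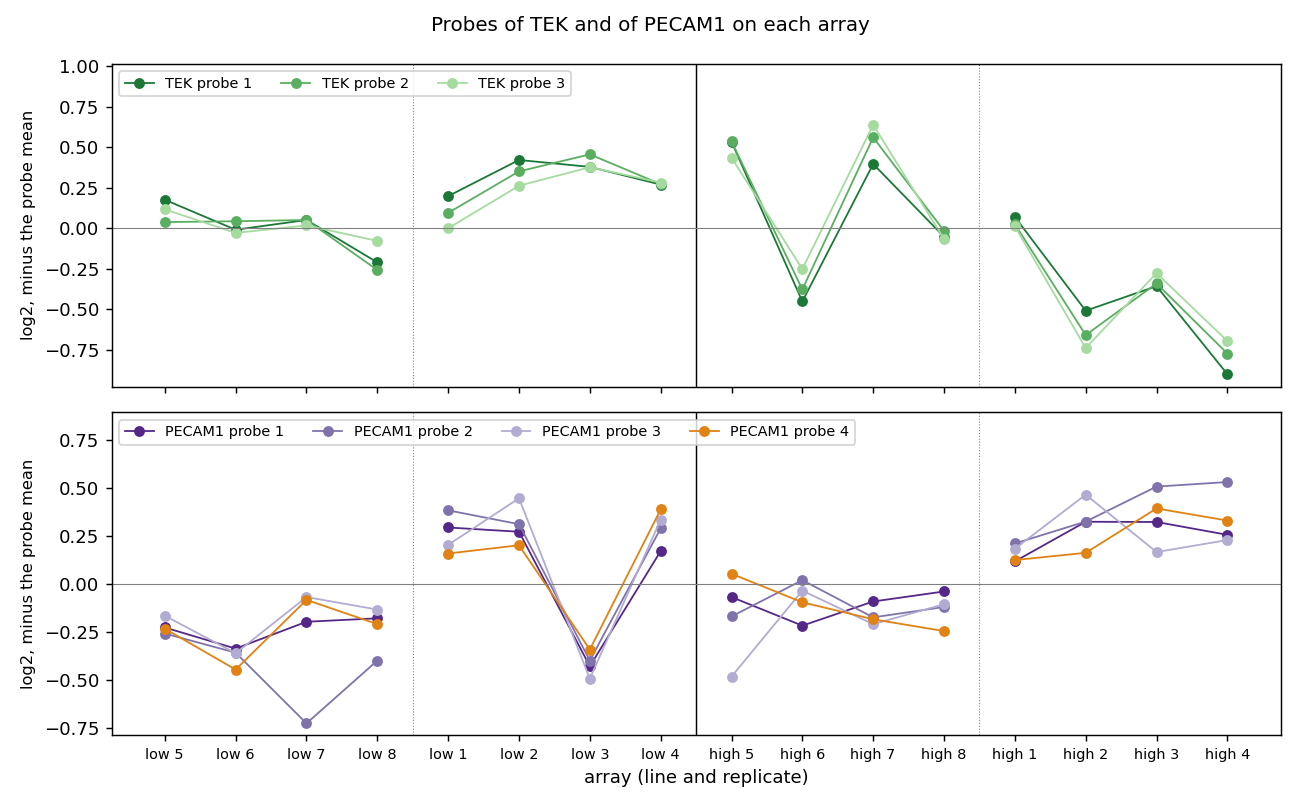
Level of the 3 TEK probes (upper panel) and the 4 PECAM1 probes (lower panel) on each of 16 arrays, as log2 minus the mean of the probe, low-RFI left and high-RFI right. The TEK probes lie almost on each other, with high-RFI replicates 2 and 4 lowest, and all 4 PECAM1 probes drop at low-RFI replicate 3.

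By Pearson r over the 16 arrays the endothelial genes other than TEK correlated positively in every pair, and TEK had no positive r with them. All 10 pairs among SOX18, ENG, PECAM1, VWF and CDH5 correlated positively, with a median r of 0.42 and a range of 0.08 to 0.68. Of all kept probes, 1.54% (ENG with VWF) to 39.0% (SOX18 with CDH5) had an r with the first gene at least as high. A positive r alone therefore does not set a pair apart from other probes. TEK was set apart after its values were seen: with these 5 genes it had 0 positive values of r, between -0.43 and -0.04. Its rho was weakly positive with ENG, VWF and CDH5 (0.09, 0.06 and 0.21) and negative with SOX18 and PECAM1 (-0.30 and -0.18). Under normexp background correction its r with ENG, VWF and CDH5 was also just above 0 (0.06, 0.02 and 0.002). With the mean of each line and replicate set taken off, the 10 pairs stayed positive with a median of 0.26, and 2 of the 5 with TEK were positive, with VWF at 0.48 and with ENG at 0.39. The pattern was not the same in each group of 8 arrays. Of the 10 pairs without TEK, 6 were positive within replicates 5 to 8 (median 0.16) and 9 within replicates 1 to 4 (median 0.50), and 10 within low-RFI (median 0.44) and 5 within high-RFI pigs (median 0.08). TEK was positive with 4 of the 5 within replicates 5 to 8, led by VWF at 0.76, and with 0 within replicates 1 to 4, and with 4 within low-RFI and 1 within high-RFI pigs. In all, 21 pairs of the 7 genes were computed. In limma fits of all probes on each gene in turn, 12.5% of probes passed with PECAM1, 0.595% with VWF, 0.00623% each with CDH5 and TEK, and 0% each with ADM, ENG and SOX18.

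PECAM1 and VWF were the closest pair. Their Pearson r was 0.68 and Spearman rho 0.68 over 16 arrays (permutation p = 0.005 and 0.004), and r was 0.63 without the 2 arrays farthest from the median. In a limma fit of all probes on PECAM1, VWF passed (adjusted p = 0.0292), where 12.5% of all probes did. The reverse fit, of all probes on VWF, did not call PECAM1 (limma adjusted p = 0.105), and 0.595% of all probes passed there. The pair thus passed in 1 direction only, and it is the highest r of the 21 pairs. The relation was not seen within replicates 5 to 8 (r = -0.03, exact permutation p = 0.944), against 0.81 within replicates 1 to 4 (exact permutation p = 0.104). Within low-RFI pigs r was 0.83 and within high-RFI pigs 0.59 (exact permutation p = 0.010 and 0.128). With the means of each line and replicate set taken off r was 0.48, and VWF did not pass (limma adjusted p = 0.476, with 0.0935% of all probes called).

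ENG and VWF came next, with r = 0.63 and rho = 0.64 (permutation p = 0.009 each), and r = 0.57 without the 2 farthest arrays. Their r was 0.49 within replicates 5 to 8 and 0.76 within replicates 1 to 4 (exact permutation p = 0.218 and 0.015). It was 0.55 within low-RFI and 0.80 within high-RFI pigs (exact permutation p = 0.158 and 0.016). Over all probes VWF did not pass with ENG in limma (adjusted p = 0.341), where 0% of all probes did. PECAM1 and CDH5, the junction pair, had r = 0.52 and rho = 0.45 (permutation p = 0.039 and 0.078; limma adjusted p = 0.153), with r = 0.68 within low-RFI and -0.01 within high-RFI pigs. CDH5 probe 2 did pass in the fit of all probes on PECAM1 (limma adjusted p = 0.0211), where 12.5% of all probes passed. With the means of each line and replicate set taken off, CDH5 probe 2 did not pass (limma adjusted p = 0.379).

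**Figure D4:**
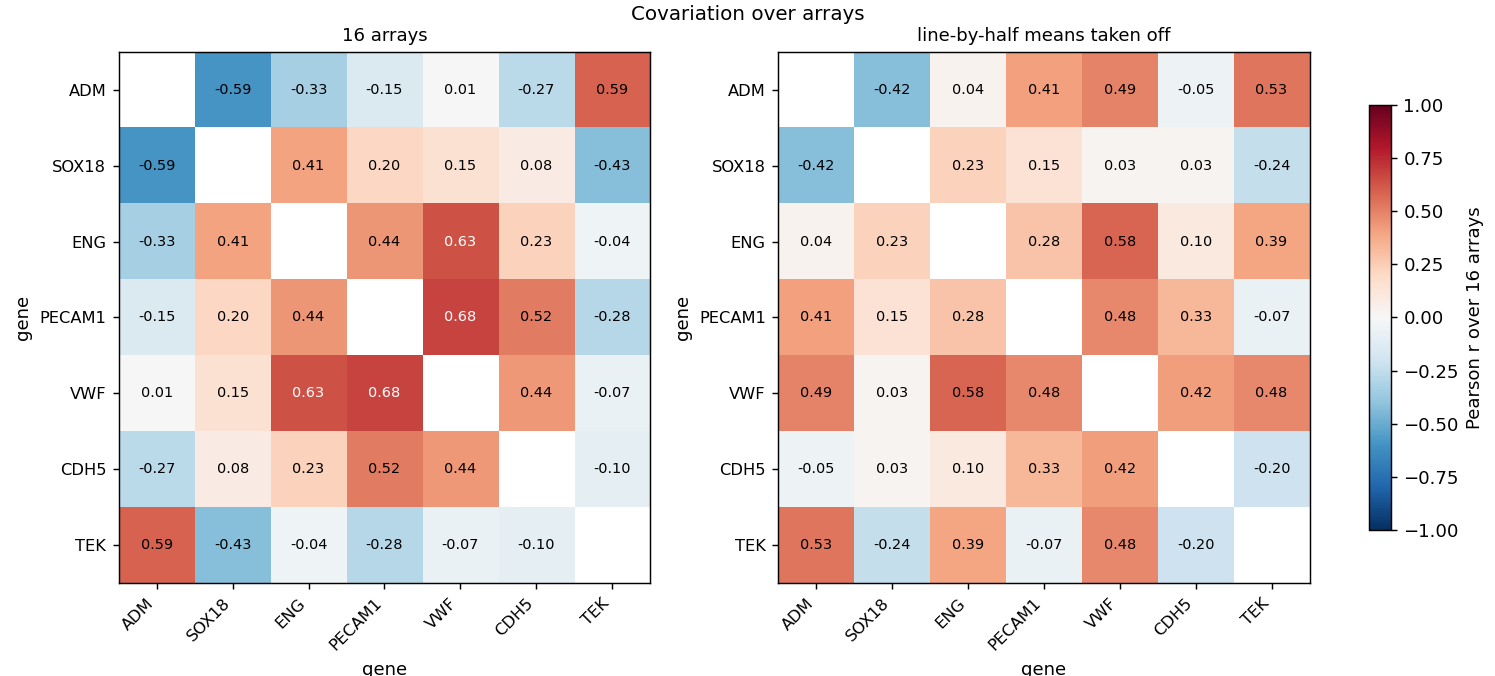
Pearson r between each pair of 7 genes over 16 arrays, from the values as they are (left) and with the mean of each line and replicate set taken off (right). On the left, ENG, PECAM1, VWF and CDH5 are positive with each other, from 0.23 (ENG with CDH5) to 0.68 (PECAM1 with VWF). SOX18 is at 0.41 with ENG and at 0.08 to 0.20 with PECAM1, VWF and CDH5. ADM is at -0.59 with SOX18 and 0.59 with TEK.

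No relation of ADM with the endothelial genes as a group was detected. Its r with the mean of the 6 measured endothelial genes was -0.16 and rho was -0.28. The 95% interval of r ran from -0.60 to 0.37, so a moderate negative or a weaker positive relation is not excluded. Of all kept probes 29.6% had an r with that mean at or below the r of ADM, and the median over all probes was 0.07. Without the 2 arrays farthest from the ADM median r was -0.33. It was -0.11 within replicates 5 to 8 and -0.07 within replicates 1 to 4, and 0.09 within low-RFI and 0.21 within high-RFI pigs. With the means of each line and replicate set taken off it was 0.29, and without the 4 arrays that stand apart it was -0.18. The sign of this weak value turned under normexp background correction, to 0.14. TEK is 1 of the 6 genes in the mean and had an r of 0.59 with ADM. With TEK left out, a choice made after its values were seen, the r of ADM with the mean was -0.36.

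Taken gene by gene, ADM went with TEK and against SOX18. These are the 2 largest of its 6 correlations in absolute size, and neither passed over all probes, of which 0% passed with ADM. ADM and TEK had r = 0.59 and rho = 0.50 (permutation p = 0.016 and 0.050; limma adjusted p = 0.725), and 1.56% of all probes had an r with ADM at least as high. The set was chosen with line differences known, and these enter an r over both lines, so its permutation p is not an independent test. With the means of each line and replicate set taken off r was 0.53 (limma adjusted p = 0.617). Without the 2 farthest arrays r was 0.56, and without the 4 arrays that stand apart it was 0.59. It was 0.47 within replicates 5 to 8 and 0.67 within replicates 1 to 4 (exact permutation p = 0.240 and 0.070). The sign differed by line, with r = -0.33 within low-RFI and 0.79 within high-RFI pigs (exact permutation p = 0.423 and 0.022). The difference between these correlations was not tested.

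ADM and SOX18 had r = -0.59 and rho = -0.52 (permutation p = 0.016 and 0.042; limma adjusted p = 0.725), and 2.49% of all probes had an r with ADM at least as large in absolute size. The known line differences, which run in opposite directions for these 2 genes, enter this r, so its permutation p is not an independent test. With the means of each line and replicate set taken off r was -0.42 (limma adjusted p = 0.676). Without the 2 farthest arrays r was -0.48, and without the 4 arrays that stand apart it was -0.40. It was -0.74 within replicates 5 to 8 and -0.49 within replicates 1 to 4 (exact permutation p = 0.047 and 0.207). Here too the lines differed in sign, with r = 0.34 within low-RFI and -0.76 within high-RFI pigs (exact permutation p = 0.403 and 0.034), and that difference was not tested. High-RFI replicates 3, 4 and 6 combined low ADM, at 2.06, 1.89 and 1.74, with SOX18 at 1.35, 0.95 and 1.5 and TEK at -0.04, -0.58 and -0.14.

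The other 4 relations of ADM were weaker. Its r was -0.33 with ENG, -0.27 with CDH5, -0.15 with PECAM1 and 0.01 with VWF (permutation p = 0.206, 0.312, 0.593 and 0.982; limma adjusted p = 0.793 to 0.997). Their rho values were -0.30, -0.19, -0.26 and -0.11. With PECAM1, r fell to -0.61 without the 2 farthest arrays, low-RFI replicate 1 and high-RFI replicate 6, and was 0.41 with the means of each line and replicate set taken off.

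**Figure D5:**
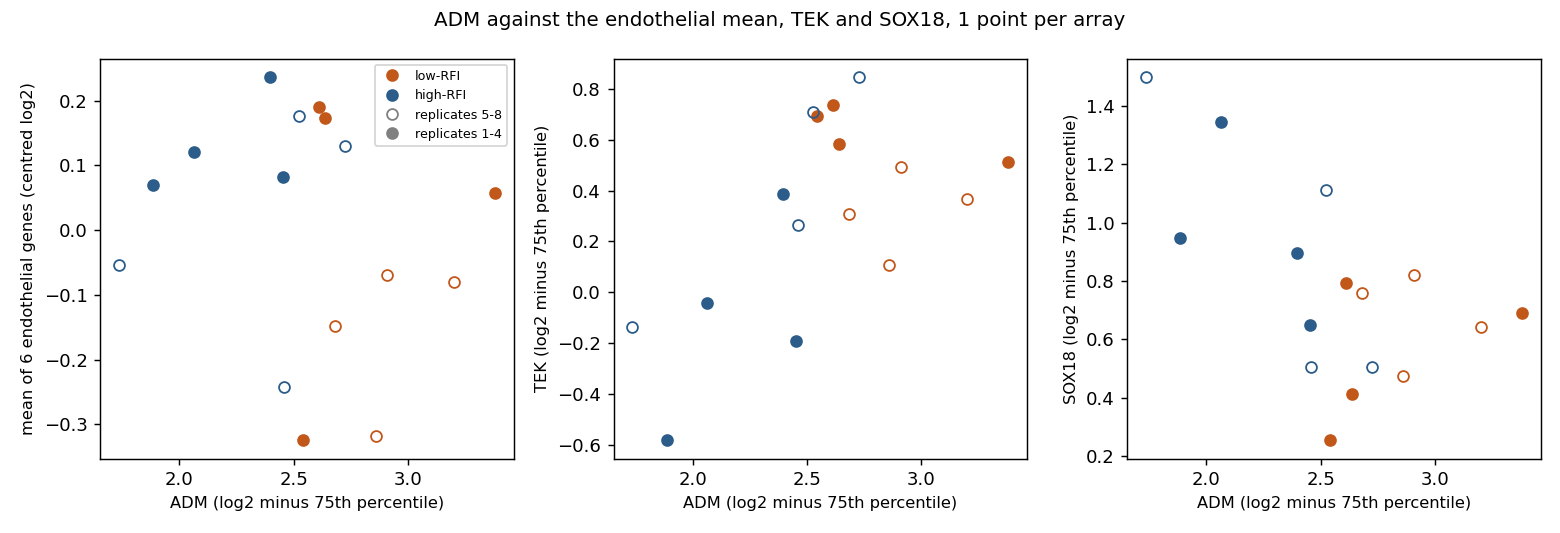
ADM level (x axis, log2 minus the 75th percentile) against the mean of 6 endothelial genes after centring each gene (left), TEK (middle) and SOX18 (right), 1 point per array, low-RFI orange, high-RFI blue, open circles for replicates 5 to 8. The endothelial mean scatters widely against ADM (r = -0.16), whereas in high-RFI pigs TEK runs up with ADM (r = 0.79) and SOX18 runs down (r = -0.76).

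The probe described as kinase insert domain receptor had a level of -0.45 ± 0.37 in low-RFI and -0.30 ± 0.35 in high-RFI pigs (SD, n = 8 each), and differed by -0.15 (SE 0.17). Its r was 0.62 with ENG (permutation p = 0.011, limma adjusted p = 0.342) and 0.49 with TEK (permutation p = 0.054, limma adjusted p = 0.686). By rho the order was reversed, at 0.50 with ENG and 0.60 with TEK (permutation p = 0.051 and 0.016). With ENG, r was 0.95 within replicates 5 to 8 and 0.42 within replicates 1 to 4, and 0.85 within low-RFI and 0.22 within high-RFI pigs. With TEK, r was 0.59 within replicates 5 to 8 and 0.49 within replicates 1 to 4, and 0.59 within low-RFI and 0.76 within high-RFI pigs. With ADM it was -0.04 and with PECAM1 -0.12. Added to the endothelial mean, after its values were seen, it left the r of ADM at -0.14.

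No endothelial gene of the wider list passed between the lines. Of 47 listed genes 23 were measured, 9 higher and 14 lower in low-RFI pigs, with a median difference of -0.05. None of them passed in limma, and 0 had an unadjusted p under 0.05. The 2 with the smallest p were MMRN2, an endothelial matrix glycoprotein, at 0.41 (SE 0.21), and NOS3, the endothelial nitric oxide synthase, at -0.26 (SE 0.16). With the mean of the 6 endothelial genes, 18 of the 23 correlated positively (median r 0.35), against 1913 of 3171 named genes (median 0.11). EDN1, which encodes the vasoconstrictor endothelin-1, stood at 0.79, the claudin CLDN5 at 0.65 and the Notch ligand DLL4 at 0.63, while NRP1, a coreceptor for VEGF, was at -0.55. With ADM, 15 of the 23 were positive (median 0.08), against 1375 of 3171 named genes (median -0.05). THBD, the anticoagulant receptor thrombomodulin, was highest at 0.61.

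No ligand of the endothelial receptors passed between the lines. Of 17 listed 11 were measured, 6 higher and 5 lower in low-RFI pigs, and neither the adjusted nor the unadjusted limma p of any was under 0.05 (0 genes). The 2 with the smallest p were VEGFA, the ligand of KDR, at 0.19 (SE 0.14), and TGFB1 at -0.20 (SE 0.17). Of the TEK ligands, ANGPT1, the activating one, differed by 0.15 (SE 0.16) and ANGPT2, its context-dependent antagonist, by -0.13 (SE 0.15). Between replicates 5 to 8 and 1 to 4, PGF, a VEGF-family ligand, and BMP4 passed, at -0.85 and -0.67 (limma adjusted p = 0.0185 and 0.0336). Of the endothelial list ETS1, a transcription factor, passed there at 0.40 (limma adjusted p = 0.0489), 1 of 23. In that comparison 5.18% of all probes were called, and 16 probes under normexp, so 1 of 23 is near the background.

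No gene of the adrenomedullin receptor passed between the lines. Of 16 listed genes of this system 6 were measured, and 0 passed in limma. CALCRL, the receptor, differed by 0.06 (SE 0.11), and its partners RAMP2 and RAMP3 by 0.01 (SE 0.13) and 0.05 (SE 0.13). CALCB, which encodes a calcitonin gene-related peptide that uses the same receptor, was the 1 gene of 6 at an unadjusted p under 0.05 (3.68% of all probes), with -2.46 in low-RFI and -3.02 in high-RFI pigs and a log2 gap of 0.57 (SE 0.26). All 6 had an r with ADM above 0, with a median of 0.26, against 1375 of 3171 named genes (median -0.05). CALCB stood at 0.63, CALCRL at 0.52 and RAMP2 at 0.45. RAMP3, RAMP1 and CALCR were near 0, at 0.06, 0.0002 and 0.07.

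No listed gene known to be induced by low oxygen passed between the lines. Of 30 listed 19 were measured, 12 higher and 7 lower in low-RFI pigs, with 0 called by limma, though 2 had an unadjusted p under 0.05, as did 3.68% of all probes. These were the collagen-modifying enzymes PLOD2 at 0.36 (SE 0.11) and P4HA1 at 0.41 (SE 0.14). Their median r with ADM was 0.05, with 12 of 19 positive. VEGFA had an r of 0.49 with ADM. Of the immediate early genes, which respond within minutes to stimuli, 5 of 16 were measured, with CYR61 at 0.75 (SE 0.19) and FOS at 1.34 (SE 0.60), both with an unadjusted p under 0.05 (3.68% of all probes), and 0 passed in limma. All 5 had an r with ADM above 0, with a median of 0.28, against 1375 of 3171 named genes (median -0.05). KLF4 and MYC were near 0, at 0.03 and 0.06. Between replicates 5 to 8 and 1 to 4, MYC passed at 0.72 (limma adjusted p = 0.0285), 1 of the 5. TFRC, the transferrin receptor of the low oxygen list, passed there at 0.88 (limma adjusted p = 0.0421), 1 of 19. In that comparison 5.18% of all probes were called, and 16 probes under normexp, so these single calls are not read as results about the lists.

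Markers of other cells moved with some of these genes, and their part in the results was not tested. For each list the mean over its measured genes was taken after centring each gene. The adipocyte list (12 of 12 measured) had a mean of -0.30 to 0.31 in low-RFI and -0.40 to 0.27 in high-RFI pigs, and its r was 0.51 with PECAM1 and 0.47 with the endothelial mean. The smooth muscle and mural list (5 of 14) had -0.99 to 1.34 in low-RFI and -0.68 to 0.81 in high-RFI pigs, with r = -0.66 with TEK and 0.43 with PECAM1. The macrophage list (5 of 11) had -0.73 to 0.32 in low-RFI and -0.66 to 1.70 in high-RFI pigs, highest in high-RFI replicate 5, with r = 0.53 with TEK and -0.11 with ADM.

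The skeletal muscle list (11 of 15) reached 7.91 in low-RFI replicate 8, with a median of -0.75 in low-RFI and -0.76 in high-RFI pigs, and r = 0.18 with ADM and -0.49 with the endothelial mean. The skin and gland epithelium list (4 of 10) ran from -1.20 to 0.08 in low-RFI and from -1.07 to 3.52 in high-RFI pigs, highest in high-RFI replicate 6. Its r with ADM was -0.52. That array also held the lowest ADM and the highest SOX18, and without it the r of ADM with SOX18 was -0.42, the weakest of the 16 values obtained by leaving out 1 array at a time (-0.66 to -0.42). The lymphatic list (3 of 6) was highest in low-RFI replicate 3, at 0.91, with r = 0.49 with TEK, and the fibroblast list (4 of 9) had r = -0.56 with the endothelial mean. Platelet and erythroid lists were measured by 1 gene each, GP9 of 8 and HBE1 of 6, which differed between the lines by 0.03 (SE 0.07) and 0.13 (SE 0.51). No gene of these cell type lists passed between the lines in limma (0 genes), though 3 of 4 epithelial genes had an unadjusted p under 0.05, beside 3.68% of all probes. The genes with the smallest p were KRT8 at -1.53 (SE 0.58) and CDH1 at -1.60 (SE 0.69) for epithelium, ENO3 at 1.11 (SE 0.87) and MYH7 at 1.49 (SE 1.21) for muscle, and CNN1 at -0.996 (SE 0.66) and MYLK at -0.39 (SE 0.27) for smooth muscle. They were AIF1 at -0.43 (SE 0.29) and TYROBP at -0.36 (SE 0.24) for macrophages, LYVE1 at 0.46 (SE 0.34) and CCL21 at 0.41 (SE 0.39) for lymphatics, CIDEC at 0.31 (SE 0.19) and LPL at 0.20 (SE 0.16) for adipocytes, and DCN at 0.20 (SE 0.12) and FBN1 at 0.39 (SE 0.26) for fibroblasts. Between replicates 5 to 8 and 1 to 4, AQP7, the glycerol channel of fat cells, passed at -0.67 (limma adjusted p = 0.0265). It was 1 of the 12 adipocyte genes, beside 5.18% of all probes called in that comparison.

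The named genes most like ADM over the 16 arrays were chosen as the 6 with the highest r among 3164. They were PIGZ at 0.76, SEMA6D at 0.72, STAG2 and CHD6 at 0.69, MAB21L1 at 0.67 and TTC14 at 0.65. PIGZ is a mannosyltransferase of GPI anchors, SEMA6D a guidance molecule of the semaphorin family, STAG2 a cohesin subunit, CHD6 a chromatin remodeller and MAB21L1 a developmental regulator. Within low-RFI pigs STAG2 and MAB21L1 had r = -0.01 and -0.17 with ADM, against 0.76 and 0.59 within high-RFI pigs. The 6 most like the endothelial mean were PALM at 0.86, ADAM10 at 0.85, UBD and CTSB at 0.84, SOS2 at 0.83 and SECISBP2 at 0.82. ADAM10 is a membrane protease that sheds cell-surface proteins and CTSB the lysosomal protease cathepsin B. None of the 12 is a gene of the endothelial list. The arrays, and whatever differs in the tissue taken from each pig, are common to all these points.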

How the data were processed

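The 16 single-colour Agilent arrays had been read with Feature Extraction version 10.7.3.1, per the file headers. The deposited processed intensity was used, which per the file headers is background subtracted and detrended within each array and not normalised between arrays. For the normexp alternative (offset 50), the raw mean and the local background intensity that the authors deposited were used instead. The authors also deposited a log2 value table, which equalled the log2 processed signal minus the array's median over its 28963 spots. The submitters' processing notes name R 2.10.0.

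Of 43803 spots that are not controls, those marked as outliers were left out, and spots of a probe were averaged, which gave 43603 probes. Each array's log2 signals were set relative to their 75th percentile. A probe was kept if well above background on at least 8 arrays with at least 6 values in each line (32097 probes). Lines, and replicates 5 to 8 against 1 to 4 with line as covariate, were compared by linear models (R 4.3.3, limma 3.58.1; two-sided, Benjamini-Hochberg over all kept probes, threshold 0.05). Separate fits were made within replicates 5 to 8 and 1 to 4. Their difference was fitted as an interaction. The number of arrays limits the precision. Pigs of the same number were not treated as pairs in the main fits: they deviated together at r = -0.29 to 0.32.

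Correlations used 100000 permutations over 16 arrays and exact permutations over 8 (scipy 1.17.1), two-sided. The procedures were tested on simulated data. Members, gene lists, tests and alternatives were chosen with earlier results of these data known. The members' mean was to hold 7 endothelial genes and held 6, since no probe is named KDR. Named were all members, 2 genes of each list by smallest p where none passed between the lines, and the 6 genes most like ADM and most like the endothelial mean; list genes given for their correlation or for replicates 5 to 8 against 1 to 4, and ligands and receptors given by role, were chosen after their values were seen. Symbols are those of the files. Probes that may lie in untranslated regions are not printed.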

Additional observations from a re-analysis of the deposited data

Results flagged for a closer look

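Of 78 groups of 4 or 8 arrays examined, 6 held an array whose gap to the nearest other array was large for the range of its group, where chance gives about 1 in 20. Low-RFI replicate 3 stood below the other low-RFI replicates 1 to 4 in 3 of them: PECAM1 at 4.77 (others 5.37 to 5.49), PECAM1 probe 2 at 2.003 (others 2.69 to 2.79) and VWF at 3.46 (others 4.24 to 4.38). ADM was 3.38 in low-RFI replicate 1, above 2.54 to 2.64 in the other low-RFI replicates 1 to 4. TEK probe 2 was -0.0924 in low-RFI replicate 8, below 0.20 to 0.22 in the other low-RFI replicates 5 to 8. CDH5 probe 2 was -1.23 in high-RFI replicate 4, above -2.01 to -1.74 in the other 7 high-RFI pigs. Without low-RFI replicate 1, the ADM difference within replicates 1 to 4 was 0.40, the lowest of the 8 values obtained by leaving out 1 array of those replicates.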

How the results depend on the processing

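The line difference of ADM kept its sign in every alternative run over 16 arrays, between 0.50 and 0.64, and no member probe passed between the lines in any of them (limma). Leaving out 1 array gave 0 to 1 probes called over 16 arrays (1 without low-RFI replicate 4, no member). In the comparison of replicates 5 to 8 with 1 to 4, it gave 1 to 6 member probes and 603 to 4790 probes in all. Normexp left 0 member probes and 16 probes there, PECAM1 probe 2 keeping its sign at -0.51 (limma adjusted p = 0.140). A filter on all 16 arrays gave 3 member probes and 1817 of 28001 probes in all, and no filter 1 member probe and 865 of 43484. Normexp moved the median line difference of all probes to -0.12, and differences under it are to be read relative to that shift.

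With the replicate number as a block, 0 member probes passed between the lines, and within replicates 1 to 4, 2 probes against 5 without the block. Of the 8 low-RFI pigs, 1 correlated best with the high-RFI pig of its own number. This check looks at single numbers only and does not bear on what replicates 5 to 8 share.

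Among the differences, those that changed sign were small and uncalled. Under normexp these were PECAM1 probe 3 (0.0426, lines, 16 arrays), CDH5 probe 2 (-0.11, replicates 1 to 4) and PECAM1 (-0.0122, line difference in replicates 5 to 8 minus that in 1 to 4). Under quantile scaling they were PECAM1 probe 3 (-0.0907) and VWF (-0.0656) within replicates 5 to 8, and PECAM1 (-0.0686) and its probe 4 (-0.0275) for that same quantity. Among the correlations, PECAM1 with VWF, the closest pair over 16 arrays, turned to -0.0341 within replicates 5 to 8, and within low-RFI pigs ADM with TEK was -0.33 and ADM with SOX18 0.34. Normexp turned the r of TEK with ENG, VWF and CDH5 to 0.06, 0.02 and 0.002. It also turned the r of ADM with PECAM1 and CDH5 to 0.09 and 0.05. The cause of these changes was not tested. Leaving out 1 array turned PECAM1 probe 3 (16 arrays, -0.129 to 0.0104; replicates 5 to 8, -0.0654 to 0.0859; replicates 1 to 4, -0.246 to 0.0676). It also turned VWF (-0.175 to 0.244) and TEK (-0.290 to 0.0377) within replicates 5 to 8, CDH5 (-0.0632 to 0.154) and its probe 2 (-0.0670 to 0.284) within replicates 1 to 4, and SOX18 between the replicate sets (-0.0431 to 0.110). The r of ADM with the endothelial mean ran from -0.23 to -0.08 when 1 array was left out, and was -0.36 without TEK, a choice made after seeing the data.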
